A study of Mus musculus with 8 samples.

Results

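The genes described here are 7 CC chemokines (Ccl2, Ccl3, Ccl4, Ccl6, Ccl7, Ccl9 and Ccl24) and 2 CC chemokine receptors (Ccr1 and Ccr2), taken by symbol from a table of 54532 mouse genes. All 9 were found and all 9 passed the filter on low values. They were measured by RNA sequencing of whole liver from 4 METTL3-HKD and 4 METTL3-Flox mice, each sampled 6 h into reperfusion that followed ischemia of 1 h. METTL3 is the catalytic subunit of the enzyme complex that writes N6-methyladenosine on RNA. The METTL3-HKD mice are given in the study's methods as METTL3 flox/-; Alb-iCre, a heterozygous knockdown driven by the albumin promoter, which acts in hepatocytes. The METTL3-Flox mice are given as METTL3 flox/flox mice of the same litters, with no Cre named, so the Cre and the lower Mettl3 dose cannot be told apart. The floxed allele carries loxP sites around exon 4. Heterozygous mice were used because homozygous knockout mice died young. The age of these mice is not given in the sources used here. All 8 livers had been clamped and reperfused, and no sham liver was analysed here, so every value is a level 6 h after reperfusion and not a response to it.

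CC chemokines are small secreted proteins that draw leukocytes along a concentration gradient, and they are named for the adjacent cysteines near the start of the mature protein. Their receptors are G protein-coupled receptors on leukocytes. In the injured liver, Ccl2 made by resident macrophages, hepatocytes and other cells recruits inflammatory monocytes through Ccr2, while Ccr1 is carried by neutrophils, monocytes and macrophages. Ccl3 binds Ccr1, Ccl4 attracts monocytes and lymphocytes, Ccl6 and Ccl9 are rodent ligands of Ccr1, and Ccl24 is an eotaxin that acts on eosinophils through Ccr3.

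The coding sequence around the adjacent cysteines is shown for 6 ligands, since this pair of codons gives the family its name and the bases on either side of it differ from gene to gene. Each run holds 36 coding bases of the annotated transcript (GENCODE M21, GRCm38), written 5′ to 3′ on the coding strand, with the adjacent cysteine codons in capitals.
Ccl2: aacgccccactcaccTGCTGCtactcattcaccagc
Ccl7: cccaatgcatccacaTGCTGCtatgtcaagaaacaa
Ccl4: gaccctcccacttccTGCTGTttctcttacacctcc
Ccl6: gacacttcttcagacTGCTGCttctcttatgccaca
Ccl9: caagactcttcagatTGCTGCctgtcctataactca
Ccl24: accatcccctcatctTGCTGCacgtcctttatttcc
The pair lay in exon 2 of 3 in Ccl2 (chr11:82036506-82036511), Ccl7 (chr11:82046538-82046543), Ccl4 (chr11:83663482-83663487) and Ccl24 (chr5:135572665-135572670). In Ccl6 (chr11:83589386-83589391) and Ccl9 (chr11:83575926-83575931), it lay in exon 3 of 4. Ccl24 holds 2 such pairs, of which the later is shown.

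Of the 9 genes, 6 lie on chromosome 11 in 2 stretches. Ccl2 (ENSMUSG00000035385, chr11:82035571-82037453, plus strand) is followed after 8258 bases by Ccl7 (ENSMUSG00000035373, chr11:82045712-82047525, plus strand). A further 1525393 bases on lie Ccl9 (ENSMUSG00000019122, chr11:83572919-83578636, minus strand), Ccl6 (ENSMUSG00000018927, chr11:83587882-83593087, minus strand), Ccl3 (ENSMUSG00000000982, chr11:83647844-83649355, minus strand) and Ccl4 (ENSMUSG00000018930, chr11:83662584-83664683, plus strand). Ccl24 (ENSMUSG00000004814, chr5:135569937-135573049, minus strand) is on chromosome 5. The receptors lie in a single stretch of chromosome 9, where 133257 bases separate Ccr1 (ENSMUSG00000025804, chr9:123962124-123968692, minus strand) from Ccr2 (ENSMUSG00000049103, chr9:124101950-124113557, plus strand). The coding sequences were 51.6% identical between Ccl2 and Ccl7, 69.8% between Ccl3 and Ccl4, 66.8% between Ccl6 and Ccl9 and 62.7% between Ccr1 and Ccr2. In 0 of the 22 pairs of members compared did the transcripts share a run of 31 bases. Ccl2 overlaps an annotated gene on the other strand that was listed at 0 FPKM, and Ccl6 overlaps one whose mean was under 0.1 FPKM. The other 7 overlapped no annotated gene.

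Values are FPKM, that is, reads per length of gene and per effective size of library. Comparisons of levels between genes therefore depend on the deposited gene length. For Ccl2, Ccl6, Ccl9 and Ccr2, this length exceeded that of the transcript whose coding sequence was compared above. Which transcripts were expressed was not tested. The libraries held between 15861245 and 18434488 reads on genes, and no pair of libraries was identical. The effective sizes by which the deposited values were divided differed from these reads. They were 18063236 to 20114825 in METTL3-HKD livers and 14210943 to 16158035 in METTL3-Flox livers, with no overlap. Scaling to the reads on genes instead is given below as an alternative. Mettl3 was 1.33 ± 0.181 FPKM (SD, n = 4) in METTL3-HKD livers and 1.5 ± 0.282 (n = 4) in METTL3-Flox livers, with overlapping groups (log2 fold change -0.16, adjusted p = 0.556). The labels are therefore not checked by the whole-gene level, which also counts cells that do not express the Cre and exons outside the deleted one. Separately from the sequencing, the study reports that METTL3 was ablated in the liver of METTL3-HKD mice. Albumin, the defining product of hepatocytes, lay between 15090 and 22088 FPKM in METTL3-HKD livers and between 17867 and 19365 in METTL3-Flox livers, so the defining marker of the labelled tissue was present in all 8. Fold changes below are log2 differences of FPKM + 0.1, METTL3-HKD minus METTL3-Flox, tested with limma across 16645 genes and adjusted by the Benjamini-Hochberg method. Each library comes from a different numbered mouse, so p-values measure the spread between these mice.

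At 6 h of reperfusion, the inflammatory ligands and their receptors were higher in METTL3-HKD livers, whereas the ligands with the highest levels in control livers were not called different. Ccl2, Ccl7, Ccl3, Ccl4, Ccr1 and Ccr2 were higher (6 of 9 members), 0 were lower and Ccl6, Ccl9 and Ccl24 did not pass the test. Over all tested genes, 9.05% were called higher (1506) and 6.63% lower (1104), a split that became 2310 and 374 when levels were scaled to the reads on genes. The same 6 members had every METTL3-HKD liver above every METTL3-Flox liver, a pattern seen in 12.7% of all tested genes, while in 9.95% every METTL3-HKD liver was below. All 6 also had a log2 fold change of at least 1, which 4.70% of tested genes reached together with the adjusted p. The median log2 fold change of the 9 members was 2.83, beside -0.00 for all tested genes. RNA of whole liver does not tell fewer cells of a type from less RNA per cell, and this holds for every level given here.

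**Figure D1:**
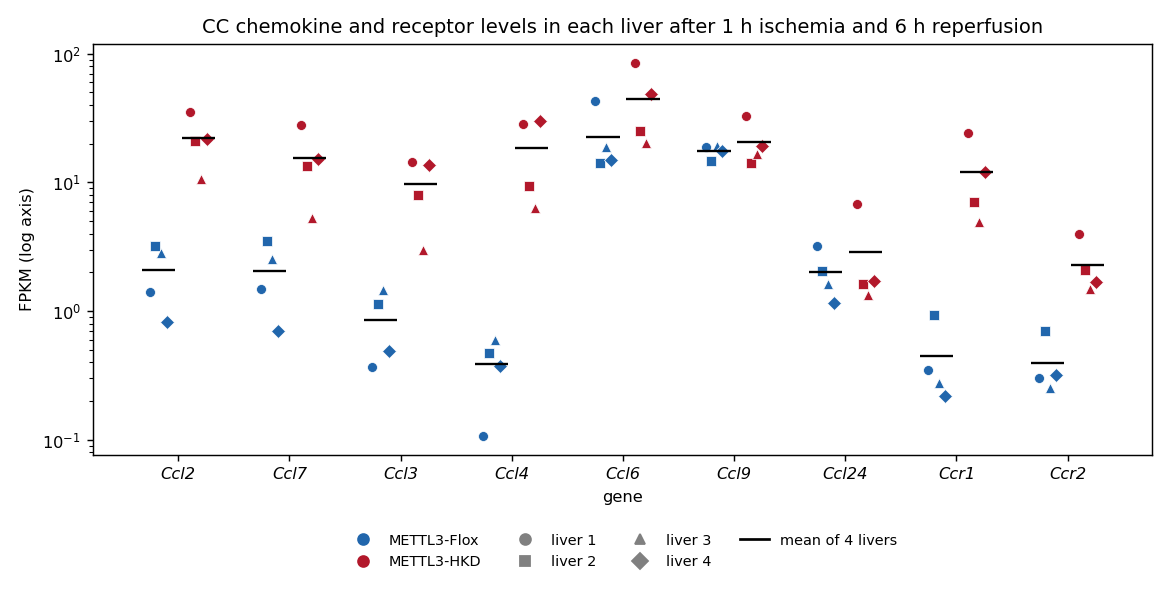
FPKM of each gene (log axis) in the 4 METTL3-Flox livers (blue) and the 4 METTL3-HKD livers (red), with the liver number given by the symbol and the group mean by a line. In Ccl2, Ccl7, Ccl3, Ccl4, Ccr1 and Ccr2, all red points lie above all blue points, whereas in Ccl6, Ccl9 and Ccl24 the colours overlap.

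Ccl2, also called MCP-1, is the principal ligand of Ccr2. It stood at 35.4, 21, 10.7 and 21.6 FPKM across METTL3-HKD livers 1 to 4, as against 1.42, 3.21, 2.83 and 0.819 FPKM across METTL3-Flox livers 1 to 4. The lowest METTL3-HKD liver was thus 3.34 times the highest METTL3-Flox liver. The means were 22.2 ± 10.1 and 2.07 ± 1.13 FPKM (SD, n = 4 each), a ratio of 10.7. The log2 fold change was 3.41 (SE 0.46, 95% CI 2.37 to 4.46, adjusted p = 0.00424). Read counts on Ccl2 were 220 to 811 in the METTL3-HKD and 15 to 59 in the METTL3-Flox livers.

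Ccl7, or MCP-3, is the neighbour of Ccl2 and a further ligand of Ccr2. It was at 27.7, 13.4, 5.25 and 15.3 FPKM across METTL3-HKD livers 1 to 4, as against 1.49, 3.48, 2.55 and 0.698 FPKM across METTL3-Flox livers 1 to 4. The groups did not overlap, but METTL3-HKD 3 was only 1.51 times METTL3-Flox 2, the narrowest gap among the 6 genes that were higher. The means were 15.4 ± 9.30 and 2.05 ± 1.21 FPKM (n = 4 each), and the log2 fold change was 2.83 (SE 0.562, 95% CI 1.56 to 4.10, adjusted p = 0.0145).

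In METTL3-Flox livers, Ccl2 and Ccl7 stood at nearly the same FPKM, a comparison that depends on the gene lengths used. The log2 difference between them was -0.07, -0.11, 0.15 and 0.20 in METTL3-Flox livers 1 to 4 and 0.35, 0.65, 1.01 and 0.49 in METTL3-HKD livers 1 to 4. Every METTL3-HKD liver thus held more Ccl2 relative to Ccl7 than any METTL3-Flox liver. The difference between the fold changes was 0.58 (SE 0.162, exact two-sided permutation p = 0.0286, adjusted p = 0.0457 over the 8 pairs compared), where 0.0286 is the smallest p that 4 against 4 livers allow. Here and for the other pairs, an adjusted p of 0.0457 depends on how many of the 8 chosen pairs reach that smallest p.

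Ccl3, or MIP-1α, is a ligand of Ccr1. It stood at 14.3, 7.91, 2.96 and 13.6 FPKM across METTL3-HKD livers 1 to 4, as against 0.367, 1.13, 1.46 and 0.487 FPKM across METTL3-Flox livers 1 to 4. METTL3-HKD 3 was again the lowest of its group, at 2.03 times the highest METTL3-Flox liver. The means were 9.70 ± 5.32 and 0.861 ± 0.521 FPKM (n = 4 each), with a log2 fold change of 3.29 (SE 0.55, 95% CI 2.05 to 4.53, adjusted p = 0.00853).

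Ccl4, or MIP-1β, had the highest fold change of the 9 genes and the lowest mean in METTL3-Flox livers. It was at 28.4, 9.35, 6.29 and 29.9 FPKM across METTL3-HKD livers 1 to 4, as against 0.107, 0.469, 0.598 and 0.376 FPKM across METTL3-Flox livers 1 to 4. The lowest METTL3-HKD liver was 10.5 times the highest METTL3-Flox liver, the widest gap among the members. The means were 18.5 ± 12.4 and 0.387 ± 0.208 FPKM (n = 4 each), and the log2 fold change was 5.08 (SE 0.564, 95% CI 3.81 to 6.36, adjusted p = 0.00245). METTL3-Flox livers 1 to 4 held only 1, 5, 6 and 4 reads on Ccl4, so its fold change depends on the value added before taking logs, and it was 3.56 with 1 FPKM added instead of 0.1.

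Ccl3 and Ccl4 exchanged their order between the groups. Ccl3 exceeded Ccl4 in all 4 METTL3-Flox livers, with log2 differences of 1.18, 1.11, 1.16 and 0.30, and was below it in all 4 METTL3-HKD livers, with differences of -0.99, -0.24, -1.06 and -1.13. The fold change of Ccl3 was thereby below that of Ccl4 on the log2 scale (difference -1.79, SE 0.297, exact permutation p = 0.0286, adjusted p = 0.0457). With 1 FPKM added, the difference was -1.17.

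Ccl6 and Ccl9 encode ligands of Ccr1 that myeloid cells make without an inflammatory stimulus. Ccl6 was at 85.1, 25.0, 20.2 and 48.6 FPKM across METTL3-HKD livers 1 to 4, as against 43.1, 14.2, 18.7 and 14.8 FPKM across METTL3-Flox livers 1 to 4. The groups overlapped because METTL3-Flox 1 exceeded METTL3-HKD livers 2 and 3. The means were 44.7 ± 29.7 and 22.7 ± 13.7 FPKM (n = 4 each), and the log2 fold change of 0.90 did not pass the test (SE 0.494, 95% CI -0.21 to 2.02, adjusted p = 0.241).

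Ccl9 was at 32.6, 14.2, 16.7 and 19.2 FPKM across METTL3-HKD livers 1 to 4, as against 18.8, 14.7, 19.3 and 17.4 FPKM across METTL3-Flox livers 1 to 4. Apart from METTL3-HKD 1, all livers lay between 14.2 and 19.3 FPKM. The means were 20.7 ± 8.21 and 17.5 ± 2.08 FPKM (n = 4 each), with a log2 fold change of 0.17 (SE 0.233, 95% CI -0.36 to 0.69, adjusted p = 0.658). The interval leaves room for changes of up to 0.69 on the log2 scale. The fold changes of Ccl6 and Ccl9 differed by 0.73 (SE 0.419), which was not past the threshold (exact permutation p = 0.143, adjusted p = 0.143).

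Ccl24, or eotaxin-2, was at 6.83, 1.63, 1.33 and 1.70 FPKM across METTL3-HKD livers 1 to 4, as against 3.21, 2.05, 1.63 and 1.15 FPKM across METTL3-Flox livers 1 to 4. METTL3-HKD 1 stood alone, and the other 7 livers overlapped. The log2 fold change was 0.25 (SE 0.499, 95% CI -0.88 to 1.38, adjusted p = 0.769). Without METTL3-HKD 1, the fold change of Ccl24 was -0.27 and that of Ccl9 was -0.07, so neither direction holds across the livers. Against Ccl24, Ccl2 had a fold change that was 3.16 larger (SE 0.539, exact permutation p = 0.0286, adjusted p = 0.0457).

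Ccr1, the receptor of Ccl3, Ccl6, Ccl7 and Ccl9, had the second-highest fold change. It stood at 24.4, 7.03, 4.96 and 12.0 FPKM across METTL3-HKD livers 1 to 4, as against 0.348, 0.939, 0.279 and 0.219 FPKM across METTL3-Flox livers 1 to 4. Even METTL3-HKD 3, the lowest, was 5.28 times METTL3-Flox 2, the highest of its group. The means were 12.1 ± 8.70 and 0.446 ± 0.333 FPKM (n = 4 each), a ratio of 27.1, and the log2 fold change was 4.38 (SE 0.516, 95% CI 3.22 to 5.55, adjusted p = 0.00315). Read counts on Ccr1 were 254 to 1388 in the METTL3-HKD and 10 to 43 in the METTL3-Flox livers.

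Ccr2, the receptor that guides inflammatory monocytes, was at 3.95, 2.10, 1.48 and 1.68 FPKM across METTL3-HKD livers 1 to 4, as against 0.302, 0.696, 0.253 and 0.322 FPKM across METTL3-Flox livers 1 to 4. The groups did not overlap, and METTL3-Flox 2 was set apart from the other 3 livers of its group. The means were 2.30 ± 1.13 and 0.393 ± 0.204 FPKM (n = 4 each), and the log2 fold change was 2.26 (SE 0.347, 95% CI 1.47 to 3.04, adjusted p = 0.00676). With 1 FPKM added, it was 1.20.

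The receptors stood at nearly equal FPKM in METTL3-Flox livers, where the log2 difference of Ccr1 over Ccr2 was 0.16, 0.39, 0.10 and -0.40 in livers 1 to 4. In METTL3-HKD livers 1 to 4, it was 2.59, 1.70, 1.68 and 2.76. By FPKM, every METTL3-HKD liver thus held more Ccr1 than Ccr2. The deposited length was 2833 bases for Ccr1 and 6760 for Ccr2, and both comparisons of levels depend on it. Reads on Ccr1 and Ccr2 were 254 to 1388 and 181 to 537 in METTL3-HKD livers, and 10 to 43 and 26 to 76 in METTL3-Flox livers. The fold change of Ccr1 exceeded that of Ccr2 by 2.12 (SE 0.332, exact permutation p = 0.0286, adjusted p = 0.0457).

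Ligands were also set against their receptors. Ccl2 exceeded Ccr2 in fold change by 1.15 (SE 0.432), which did not pass the threshold (exact permutation p = 0.0571, adjusted p = 0.0762) but did with 1 FPKM added (1.68, adjusted p = 0.0381) and did not when scaled to reads on genes (adjusted p = 0.0762). Ccl3 differed from Ccr1 by -1.09 (SE 0.521, exact permutation p = 0.114, adjusted p = 0.131), so a difference was not shown. Ccl9 and its receptor showed the largest difference of the 8 pairs, with a fold change of Ccl9 below that of Ccr1 (difference -4.21, SE 0.536, exact permutation p = 0.0286, adjusted p = 0.0457). In METTL3-Flox livers, Ccl9 exceeded Ccr1 by 3.83 to 5.77 on the log2 scale, and in METTL3-HKD livers by 0.42 to 1.73.

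**Figure D2:**
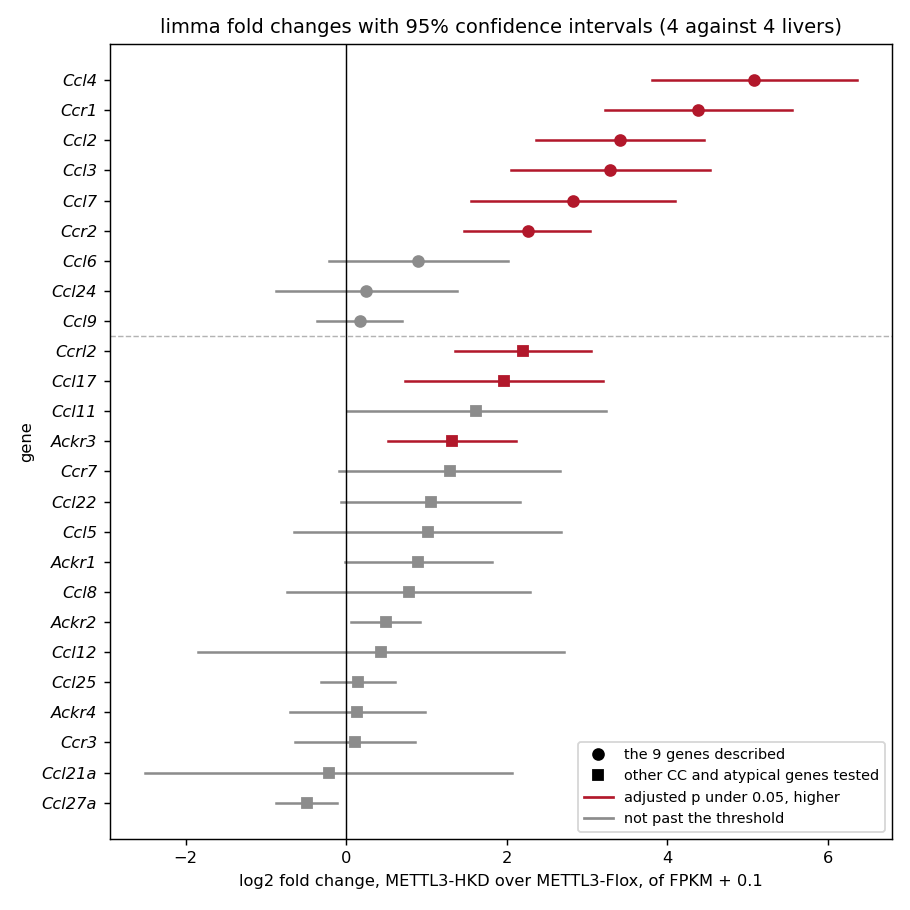
Log2 fold change of FPKM + 0.1 with 95% confidence intervals for the 9 genes (circles, above the dashed line) and for other CC chemokines, CC receptors and atypical receptors that were tested (squares), with red for an adjusted p under 0.05. Ccl4 and Ccr1 have the highest fold changes, at 5.08 and 4.38, and the intervals of Ccl6, Ccl24 and Ccl9 include 0.

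The FPKM of the 7 ligands were added, although each depends on the length given for its gene. They summed to 230, 92.4, 63.4 and 150 FPKM across METTL3-HKD livers 1 to 4, as against 68.5, 39.2, 47.0 and 35.7 FPKM across METTL3-Flox livers 1 to 4. The sums overlapped, since METTL3-Flox 1 exceeded METTL3-HKD 3. Ccl2, Ccl7, Ccl3 and Ccl4 together made up 45.9%, 55.9%, 39.7% and 53.7% of it in METTL3-HKD livers 1 to 4 and 4.95%, 21.1%, 15.8% and 6.67% in METTL3-Flox livers 1 to 4. Ccl6 and Ccl9 together made up 42.3% to 58.2% in METTL3-HKD livers and 73.6% to 90.4% in METTL3-Flox livers. Ccl4 alone went from 0.919% ± 0.517 (n = 4) in METTL3-Flox livers to 13.1% ± 4.71 (n = 4) in METTL3-HKD livers. Taken singly, Ccl6 (27.0% to 37.0% against 36.2% to 62.9%) and Ccl7 (8.28% to 14.5% against 1.96% to 8.87%) had shares that overlapped between the groups. These shares are given as a description, with no test.

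**Figure D3:**
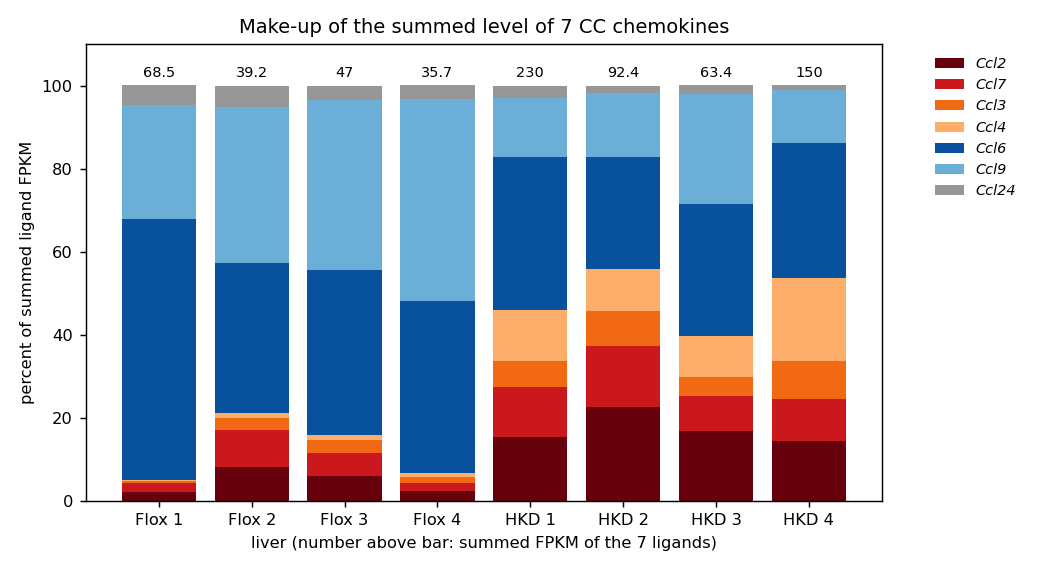
Percent of the summed FPKM of 7 CC chemokines contributed by each gene (stacked bars) in each liver, with the sum above the bar. Ccl6 and Ccl9 (blue) fill 73.6% to 90.4% of the METTL3-Flox bars, and Ccl2, Ccl7, Ccl3 and Ccl4 (red to orange) fill 39.7% to 55.9% of the METTL3-HKD bars.

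Ordered by mean level, the members in METTL3-Flox livers ran from Ccl6 (22.7 FPKM) and Ccl9 (17.5 FPKM) through Ccl2, Ccl7 and Ccl24 (2.07, 2.05 and 2.01 FPKM) and Ccl3 (0.861 FPKM) to Ccr1, Ccr2 and Ccl4 (0.446, 0.393 and 0.387 FPKM). Of neighbours in this order, only Ccl9 and Ccl2 had ranges over the 4 livers that did not overlap. In METTL3-HKD livers, the order was Ccl6 (44.7 FPKM), Ccl2 (22.2), Ccl9 (20.7), Ccl4 (18.5), Ccl7 (15.4), Ccr1 (12.1), Ccl3 (9.70), Ccl24 (2.87) and Ccr2 (2.30). There, the ranges of all neighbours overlapped. Both orders depend on the gene lengths used. Ccl4 stood last in METTL3-Flox livers and just after Ccl9 in METTL3-HKD livers. The first place of Ccl6 in METTL3-Flox livers rests on METTL3-Flox 1, the only one of the 4 in which it exceeded Ccl9. Without that liver, a setting chosen after seeing the data, the means were 15.9 FPKM for Ccl6 and 17.1 FPKM for Ccl9.

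The METTL3-HKD livers differed among themselves in a shared order. METTL3-HKD 1 was the highest of its group in 8 of the 9 genes, the exception being Ccl4, where METTL3-HKD 4 was highest. METTL3-HKD 3 was the lowest in 8 of 9, the exception being Ccl9, and in all 6 genes that were higher. Within METTL3-HKD livers, the highest value was between 2.30 times (Ccl9) and 5.28 times (Ccl7) the lowest. In METTL3-Flox livers, METTL3-Flox 2 was highest in 4 and METTL3-Flox 3 in 2 of these 6 genes.

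Markers of neutrophils and globin RNA were higher in the same livers as the 6 genes. The 9 neutrophil markers were all higher in METTL3-HKD livers, and they summed to 1647, 387, 338 and 558 FPKM across METTL3-HKD livers 1 to 4, as against 13.3 to 45.6 FPKM across METTL3-Flox livers. METTL3-HKD 1 was highest and METTL3-HKD 3 lowest, as in most members. S100a9, an abundant protein of the neutrophil cytosol, was at 403 ± 315 against 13.9 ± 5.71 FPKM (n = 4 each, log2 fold change 4.68, adjusted p = 0.00207). Cxcr2, the main chemokine receptor of neutrophils, had a log2 fold change of 4.06 (adjusted p = 0.00339). Csf3r, the receptor for the growth factor of neutrophils, had one of 3.12 (adjusted p = 0.000511). The part of these cells in the levels of Ccr1, Ccl3, Ccl4 and the other members was not tested.

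Of 10 markers of monocytes and recruited macrophages, 2 were higher and 0 lower. Chil3 was at 37.2 ± 28.3 against 1.93 ± 1.34 FPKM (n = 4 each, log2 fold change 4.19, adjusted p = 0.00389), and F13a1 was at 3.58 ± 2.60 against 0.213 ± 0.282 FPKM (n = 4 each, log2 fold change 3.69, adjusted p = 0.00739). Ly6c2, which defines the inflammatory monocytes that carry Ccr2, was at 3.83, 6.77, 0.485 and 1.16 FPKM across METTL3-HKD livers 1 to 4, as against 0.542 to 0.976 FPKM in METTL3-Flox livers. It was high in METTL3-HKD livers 1 and 2 only, and it did not pass the test (log2 fold change 1.27, adjusted p = 0.229). Lyz2, the lysozyme of myeloid cells, was at 105 ± 56.6 against 47.4 ± 12.6 FPKM (n = 4 each) with no overlap, and it missed the threshold (log2 fold change 1.06, adjusted p = 0.0542). The summed level of the list was 349 to 541 FPKM in METTL3-HKD and 320 to 376 FPKM in METTL3-Flox livers, with overlap. Most of this sum in METTL3-Flox livers was Fn1, fibronectin, which hepatocytes also secrete, at 232 ± 40.5 against 273 ± 20.7 FPKM (n = 4 each, log2 fold change -0.25, adjusted p = 0.245). Without Fn1, a setting chosen after seeing the data, the list summed to 323, 162, 120 and 117 FPKM across METTL3-HKD livers 1 to 4, as against 59.0 to 102 FPKM in METTL3-Flox livers, with no overlap. Most of this sum was Lyz2 and Chil3, with Lyz2 at 190, 78.9, 79.8 and 71.9 FPKM across METTL3-HKD livers 1 to 4. Plac8, Ms4a4c, Ms4a6c and Csf1r of the same list overlapped between the groups and did not pass. Their log2 fold changes were 0.07, 1.39, 0.34 and -0.58, so the list as a whole was not higher. The part of these cells in the levels of Ccr2 and the other members was not tested.

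Markers of Kupffer cells, the resident macrophages of the liver, went the other way. Of 8 markers, 7 were lower in METTL3-HKD livers, with a summed level of 101 to 153 FPKM against 210 to 422 FPKM. Folr2, a folate receptor, was at 0.713 ± 0.305 against 2.03 ± 0.862 FPKM (n = 4 each, log2 fold change -1.39, adjusted p = 0.0263). Vsig4, a complement receptor, and Cd163, the scavenger receptor for haemoglobin, had log2 fold changes of -0.96 and -0.91 (adjusted p = 0.0291 and 0.0292). In these 3 genes, every METTL3-HKD liver was below every METTL3-Flox liver. Clec4f, a lectin particular to Kupffer cells, was at 25.1 ± 10.1 against 62.2 ± 27.5 FPKM (n = 4 each, log2 fold change -1.31, adjusted p = 0.0337), while Marco did not pass (-0.29, adjusted p = 0.786). These calls depended on single livers, and between 0 and 4 of the 8 were lower when METTL3-HKD 1, 3 or 4 or any METTL3-Flox liver was left out, with 0 of 8 without METTL3-Flox 3 or METTL3-Flox 4. When levels were scaled to the reads on genes, 2 of 8 were lower. Eosinophil markers did not separate the groups, as Ccl24 did not: 3 of 8 could be tested, 0 of these passed, Epx and Ear1 were at 0 in all livers, and the summed levels were 3.97 to 8.60 FPKM against 6.65 to 14.4 FPKM.

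Globin RNA, the content of red blood cells, was also higher. Of 5 markers of red blood cells, 4 were higher, and the list summed to 597, 408, 185 and 441 FPKM across METTL3-HKD livers 1 to 4, as against 48.2 to 107 FPKM in METTL3-Flox livers. The globin genes have near-identical copies, so the split of reads among them is uncertain. Hbb-bs, the adult beta globin, was at 235 ± 107 against 23.1 ± 10.3 FPKM (n = 4 each, log2 fold change 3.28, adjusted p = 0.00378). Hba-a1 and Hbb-bt, further adult globins, had log2 fold changes of 3.20 and 3.04 (adjusted p = 0.00392 and 0.00428). The 4 higher markers are all globins. Alas2, the enzyme of haem synthesis in red cell precursors, was at 16.1 ± 8.24 against 28.9 ± 6.76 FPKM (n = 4 each), with overlap, and did not pass (log2 fold change -0.98, adjusted p = 0.103). For the summed list, METTL3-HKD 3 was the lowest of its group here too, and the part of the blood content in the members' levels was not tested. Of 8 hepatocyte markers, 0 passed the test, and all 8 had negative fold changes (median log2 fold change -0.44). Hpx, the haem carrier of plasma, was at 7522 ± 415 against 14208 ± 6436 FPKM (n = 4 each) with no overlap (log2 fold change -0.82, adjusted p = 0.136). Cps1, an enzyme of the urea cycle, and Cyp2e1, a cytochrome P450, had log2 fold changes of -0.79 and -0.38 (adjusted p = 0.177 and 0.196), and their groups overlapped. Of 7 markers of sinusoidal endothelium, 0 passed in either direction. Likewise, 0 of 6 tested markers of T cells, 0 of 3 of B cells and 0 of 2 of NK cells passed. Of 5 dendritic cell markers, Clec9a was lower, and of 6 markers of stellate cells, Des and Hgf were higher and Colec11 and Lrat lower.

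**Figure D4:**
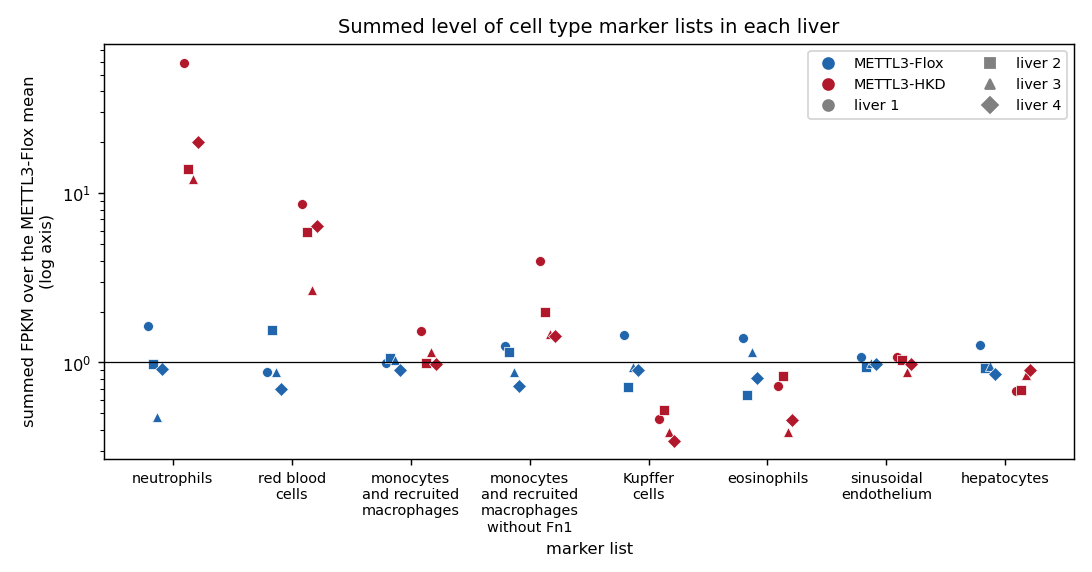
Summed FPKM of 7 lists of cell type markers in each liver, that of monocytes and recruited macrophages also without Fn1, divided by the mean of the METTL3-Flox livers (log axis), with blue for METTL3-Flox, red for METTL3-HKD and the symbol for the liver number. Neutrophil sums of 338 to 1647 FPKM in METTL3-HKD livers lie above the 13.3 to 45.6 FPKM of METTL3-Flox livers, and Kupffer cell sums of 101 to 153 FPKM lie below 210 to 422 FPKM.

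The genes whose pattern over the 8 livers was most like that of a member were sought among all other tested genes, by the mean absolute difference of log2 levels after each gene was centred. For Ccl2 they were Hbb-bs (0.277), Slfn4 (0.277) and Tnc (0.282), and Ccl7, the nearest member, was at 0.291. Slfn4 is a schlafen gene of myeloid cells, and Tnc encodes the matrix protein tenascin C. For Ccl3 they were Tnc (0.369), Lilrb4a (0.381) and Slfn4 (0.382), with Ccl2 at 0.371. Ccr1 was matched by Slc16a3, a lactate transporter (0.186), Ier3, an early response gene (0.256), and Il1b, the cytokine interleukin-1β (0.30). Ccr2 was matched by Fst, which encodes follistatin (0.183), Slc2a1, a glucose transporter (0.185), and Sphk1, a sphingosine kinase (0.224), and its nearest member was Ccl7 at 0.573. Ccl9 was matched by Spib (0.110), Tspan3 (0.110) and St14 (0.116), none of which passed the test of the groups. Spib (means 0.122 and 0.0849 FPKM) and St14 (0.144 and 0.0956 FPKM) were near the added 0.1 FPKM, which flattens their log2 levels. In METTL3-Flox livers, Tnc (mean 0.101 FPKM), Sphk1 (0.0873 FPKM) and Slc16a3 (0.187 FPKM) were near it too, so the likeness of these matches also depends on the value added. The nearest member to Ccl9 was Ccl24 at 0.462, and 11254 of the 16636 other genes were nearer. The likeness over 8 livers includes the difference between the groups and is a description.

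For 5 of the 9 genes, a promoter sequence was at hand in RefSeq (GRCm38.p6): Ccl3, Ccl6, Ccl9, Ccr1 and Ccr2. These were searched on both strands, from 250 bases before the start site to 50 bases after it, for the NF-kB consensus, for the AP-1 motif TGANTCA and for the PU.1 core GAGGAA, which are motifs of factors known for inflammatory and myeloid genes. Among 27025 promoters of the same length, 8.18% held the NF-kB consensus, 7.93% the AP-1 motif and 28.3% the PU.1 core. The 3 promoters with a match are shown over the 250 bases before the start site, 5′ to 3′ on the gene's strand, with matches in capitals.
Ccr1, chr9:123968693-123968942, minus strand: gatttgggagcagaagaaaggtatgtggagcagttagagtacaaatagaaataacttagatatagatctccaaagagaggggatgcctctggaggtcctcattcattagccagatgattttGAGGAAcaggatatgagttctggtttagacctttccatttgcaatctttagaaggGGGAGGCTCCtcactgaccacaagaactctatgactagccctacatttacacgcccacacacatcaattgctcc
Ccl3, chr11:83649379-83649628, minus strand: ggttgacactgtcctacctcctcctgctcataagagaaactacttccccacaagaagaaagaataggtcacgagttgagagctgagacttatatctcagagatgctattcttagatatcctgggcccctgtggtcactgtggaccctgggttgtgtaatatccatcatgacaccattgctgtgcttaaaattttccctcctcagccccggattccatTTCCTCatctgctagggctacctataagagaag
Ccl9, chr11:83578637-83578886, minus strand: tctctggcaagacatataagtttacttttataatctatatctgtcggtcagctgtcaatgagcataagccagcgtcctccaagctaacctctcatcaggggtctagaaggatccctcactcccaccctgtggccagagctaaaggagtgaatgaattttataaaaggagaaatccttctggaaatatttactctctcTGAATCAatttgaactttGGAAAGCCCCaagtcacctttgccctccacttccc
Ccr1 held GAGGAA from -129 to -124 and an NF-kB match from -74 to -65, counted from the start site. Ccl3 held TTCCTC, the PU.1 core on the other strand, from -33 to -28. Ccl9, which did not pass the test of the groups, held TGAATCA from -53 to -47 and an NF-kB match on the other strand from -35 to -26. Ccl6 and Ccr2 held none of these letters in this window. Motif matches thus stood both in members that were higher and in one that was not called, and no motif overlapped another.

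Of 16 other CC chemokines listed, 9 passed the filter, and 1 was higher. Ccl17, a ligand of Ccr4 from dendritic cells and macrophages, was at 0.505 ± 0.333 against 0.0685 ± 0.137 FPKM (n = 4 each, log2 fold change 1.97, adjusted p = 0.0421). It was listed at 0 in METTL3-Flox livers 2, 3 and 4, the groups overlapped, and the call was lost in 10 of the 15 alternatives in which it could be tested. Ccl5, a T cell and platelet ligand of Ccr1, was at 4.45 and 4.34 FPKM in METTL3-HKD livers 1 and 2, at 0.750 and 0.392 FPKM in METTL3-HKD livers 3 and 4, and at 0.411 to 1.23 FPKM in METTL3-Flox livers (log2 fold change 1.02, adjusted p = 0.376). Ccl8, Ccl11 and Ccl12, which lie beside Ccl7 on chromosome 11, had log2 fold changes of 0.78, 1.62 and 0.43 and did not pass (adjusted p = 0.465, 0.154 and 0.808). The neighbours of Ccl2 and Ccl7 were thus at means under 1 FPKM in both groups.

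Of 9 other CC receptors, 4 were tested and 1 was higher. Ccrl2, an atypical receptor that presents chemerin, was at 3.67, 5.35, 3.35 and 2.75 FPKM across METTL3-HKD livers 1 to 4, as against 0.271, 0.881, 1.22 and 0.837 FPKM across METTL3-Flox livers 1 to 4, with no overlap (log2 fold change 2.20, SE 0.374, adjusted p = 0.00894). Unlike the members, it was highest in METTL3-HKD 2. Ccr3, the receptor of Ccl24, was at 0.116 ± 0.0489 against 0.102 ± 0.0495 FPKM (n = 4 each, adjusted p = 0.858). Among 4 atypical receptors, Ackr3 was higher (1.27 ± 0.642 against 0.438 ± 0.189 FPKM, n = 4 each, log2 fold change 1.32, adjusted p = 0.0377), but the call was lost in 11 of the 15 alternatives in which it could be tested.

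Genes that act downstream of these receptors were called in part. Of 25 tested genes of chemokine receptor signalling, 5 were higher and 0 lower, with a median log2 fold change of 0.25. They included Fgr, a Src family kinase of myeloid cells (1.11, adjusted p = 0.0207), Rac1, a small GTPase of cell movement (0.54, adjusted p = 0.0233), and Gnb1, a G protein subunit (0.46, adjusted p = 0.0289). The count was between 0 and 3 when METTL3-HKD 1, 2 or 4 or METTL3-Flox 2, 3 or 4 was left out. Of 22 inducers and targets of NF-kB, the transcription factor that drives Ccl2, Ccl3 and Ccl4, 7 were higher and 0 lower. Il1b was at 69.7, 23.2, 11.2 and 32.4 FPKM across METTL3-HKD livers 1 to 4, as against 1.01 to 2.69 FPKM in METTL3-Flox livers (log2 fold change 3.93, adjusted p = 0.00381). Like most members, it was highest in METTL3-HKD 1 and lowest in METTL3-HKD 3. Tnf, a cytokine that induces Ccl2, had a log2 fold change of 2.06 (adjusted p = 0.0158, a call lost without METTL3-HKD 1), and Nfkb1 one of 0.67 (adjusted p = 0.0136). The count was 3 or 4 without METTL3-HKD 1 or 2 or without METTL3-Flox 2, 3 or 4, 10 without METTL3-HKD 3 or with array weights, and 11 when levels were scaled to the reads on genes.

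Of 14 tested genes of monocyte growth and traffic, 5 were higher and 0 lower. Csf1, the growth factor of macrophages, was at 5.63 ± 0.711 against 2.70 ± 0.775 FPKM (n = 4 each, log2 fold change 1.07, adjusted p = 0.0117). Itgam, the CD11b integrin of myeloid cells, and Csf2rb, a cytokine receptor chain, had log2 fold changes of 1.79 and 1.61 (adjusted p = 0.0255 and 0.0206). Csf1r, the receptor of Csf1, was at 9.99 ± 3.48 against 14.4 ± 2.63 FPKM (n = 4 each) and did not pass (-0.58, adjusted p = 0.140), nor did Cx3cr1, the fractalkine receptor (0.39, adjusted p = 0.421). The count was between 1 and 3 without METTL3-HKD 2 or 4 or without METTL3-Flox 2, 3 or 4.

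The calls on the members themselves did not depend on a single liver. Under each of the 16 alternatives, 8 of which leave out 1 liver, the same 6 genes were higher, with adjusted p between 0.00142 for Ccl4 and 0.0435 for Ccl7. Adding 1 FPKM lowered the fold changes to 2.89 for Ccl2, 2.32 for Ccl7, 2.38 for Ccl3, 3.56 for Ccl4, 2.98 for Ccr1 and 1.20 for Ccr2.

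**Figure D5:**
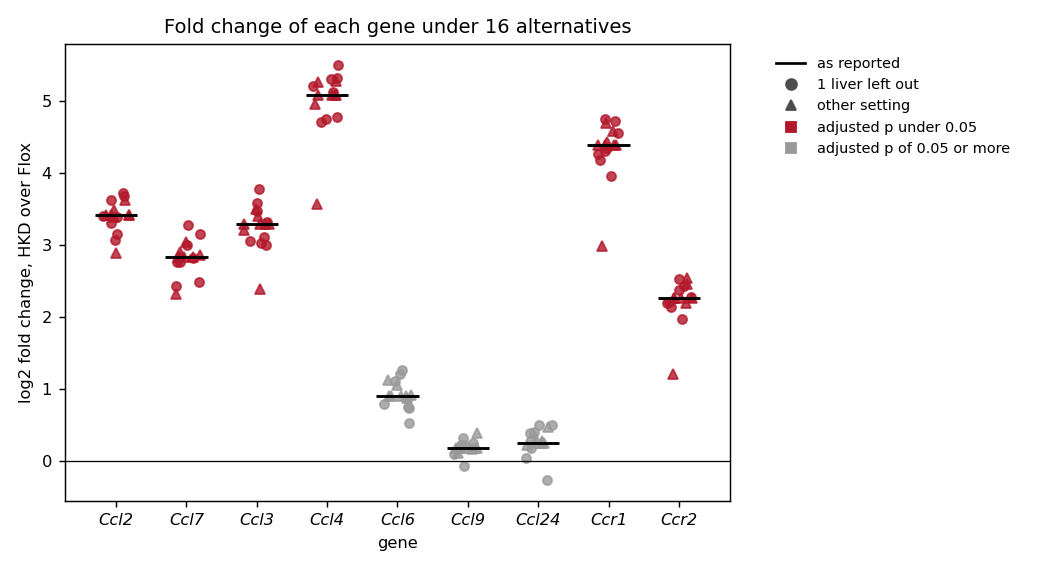
Log2 fold change of each gene as reported (line) and under 16 alternatives, with circles where 1 liver was left out, triangles for other settings and red for an adjusted p under 0.05. Ccl2, Ccl7, Ccl3, Ccl4, Ccr1 and Ccr2 are red throughout, Ccl6, Ccl9 and Ccl24 are grey throughout, and for the 6 red genes the lowest triangle is that with 1 FPKM added.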

How the data were processed

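Libraries were made from total RNA with a SMARTer mRNA-Seq kit, and the authors deposited FPKM for 54532 genes with gene lengths. The builds named are GRCm38 and mm10. Aligner, counter, annotation and strand setting are not given in the sources used here, so reads of overlapping genes cannot be told apart by strand. Coordinates equalled GENCODE M21 for 98.0% of genes. Deposited FPKM times length and an effective library size gave whole reads (within 0.001) for 100% of non-zero values, which served for depth (15861245 to 18434488 reads on genes) and the voom alternative. FPKM were scaled between libraries before deposition. The 16645 genes whose mean reached 0.1 FPKM were tested on log2(FPKM + 0.1), which understates changes of low genes, with limma 3.58.1 (eBayes with trend) in R 4.3.3, Benjamini-Hochberg adjusted over all of them at 0.05. Pairs of members were compared by exact permutation over 70 arrangements. The method was tested on simulated data. Alternatives were another pseudocount or minimum, no trend, a replicate block, voom, scaling to reads on genes, array weights and each liver left out. The members and lists were chosen with earlier results of these data known. All members are named, with other CC genes, the 3 genes with the smallest adjusted p of each list not given by counts alone (as eosinophil, lymphocyte, dendritic and endothelial markers are) and the 3 genes most like each of 5 members. Some genes and sequences are not reported here. Genes named besides these were chosen after their values were seen.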

Additional observations from a re-analysis of the deposited data

Results flagged for a closer look

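In 3 of the 18 groups of 4 livers (9 genes in each genotype), a single liver stood apart from the other 3 by more than Dixon's criterion allows. For independent groups of normally spread values, chance gives about 1 in 20. These were FPKM without logs, and the same livers recur across the genes, so that rate need not hold here. Ccl6 was 43.1 FPKM in METTL3-Flox 1 (gap over range 0.845). Ccl24 was 6.83 FPKM in METTL3-HKD 1 (0.931). Ccr2 was 0.696 FPKM in METTL3-Flox 2 (0.845). Only Ccr2 of these was called different between the groups, and it stayed so without METTL3-Flox 2.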

How the results depend on the processing

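The 6 members that were higher stayed higher, and the other 3 stayed uncalled, in all 16 alternatives. With 1 liver left out, log2 fold changes ranged from 3.06 to 3.72 for Ccl2, 2.42 to 3.27 for Ccl7, 3.0 to 3.77 for Ccl3, 4.71 to 5.5 for Ccl4, 0.52 to 1.26 for Ccl6, -0.07 to 0.32 for Ccl9, -0.27 to 0.50 for Ccl24, 3.96 to 4.75 for Ccr1 and 1.97 to 2.52 for Ccr2. The signs of Ccl9 and Ccl24 reversed without METTL3-HKD 1. Differences between pairs kept their sign, from 0.45 to 0.67 for Ccl2 and Ccl7, -2.0 to -1.70 for Ccl3 and Ccl4, 1.93 to 2.29 for Ccr1 and Ccr2, 0.85 to 1.49 for Ccl2 and Ccr2 and -4.66 to -4.01 for Ccl9 and Ccr1. With 1 FPKM added, Ccl2 against Ccr2 passed the threshold (1.68); the cause was not tested. Genes that were not called and whose sign reversed with a liver left out were Ackr4 (-0.05 to 0.41), Ccl12 (-0.28 to 1.27), Ccl21a (-0.83 to 0.51, and 0.37 with array weights) and Ccr3 (-0.05 to 0.22, and -0.02 with array weights). Mettl3 was 0.05 when scaled to reads on genes. This scaling moves the median of all genes by 0.20. Relative to that median, the members were at 3.43 (Ccl2), 2.85 (Ccl7), 3.29 (Ccl3), 5.06 (Ccl4), 0.92 (Ccl6), 0.19 (Ccl9), 0.26 (Ccl24), 4.38 (Ccr1) and 2.25 (Ccr2). It also moved the calls over all genes from 1506 higher and 1104 lower to 2310 and 374.

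Over all genes, same-numbered livers did not deviate together (r from -0.0838 to 0.0711, with 1 of 4 numbers correlating best with its own). This cannot show whether the mice were paired in the design, which is not given. With the replicate number as a block, 971 genes were higher and 645 lower, and 6 members were higher. Without a minimum level, 1204 were higher and 682 lower, and with no trend 1246 and 746. With 1 liver left out, between 737 and 1653 genes were higher and between 347 and 1123 lower. Depth limits Ccl4 and Ccl3 in METTL3-Flox livers, where they rest on 1 to 6 and 4 to 17 reads.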
